A study of Mus musculus with 8 samples.

Results

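Lungs of Snx5-/- mice were compared with lungs of Snx5+/+ mice over both air states at once. All 8 arrays of the series entered 1 fit, 4 per genotype, with the air state as a covariate, and the difference is given as Snx5-/- minus Snx5+/+ on the log2 scale. The lungs were whole lungs of C57BL/6 background mice at embryonic day 18.5, taken either without air (non-air) or after the pups had been delivered by caesarean section and exposed to room air (air). Each of the 4 groups, Snx5+/+ non-air, Snx5-/- non-air, Snx5+/+ air and Snx5-/- air, had 2 arrays, which the study's methods call biological replicates. The Snx5-/- mice carried a gene trap in an intron of Snx5 from 1 embryonic stem cell line, XA155, in every tissue, and they came from crosses of heterozygotes that had been bred back to C57BL/6. Results are given for the 8563 genes outside chromosomes 2, X and Y that passed a filter on low signal, of 9640 genes that passed it on all chromosomes. Chromosome 2 holds Snx5 itself, and the X and Y chromosomes follow the sex of the pups.

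Sorting nexin 5 is a protein of early endosomes with a phosphoinositide-binding domain and a membrane-bending domain, and with its relatives it helps to return receptors from endosomes to the trans-Golgi network. Around embryonic day 18.5 the mouse lung prepares for breathing: thin alveolar type I cells spread over the future gas exchange surface, type II cells make surfactant, and fibroblasts and endothelial cells lay down elastin and the basement membrane between them. The lung also holds muscle of more than 1 kind, since smooth muscle surrounds the airways and vessels and, in the mouse, heart muscle reaches into the walls of the pulmonary veins. In RNA of a whole lung, fewer cells of a type cannot be told apart from less RNA per cell.

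Labels were checked first. The 2 deposited tables, of log2 values and of intensities, exchange the air states of the arrays within each genotype, and the description field of the non-air Snx5-/- samples says wild type, against their title and genotype fields. The genotype contrast does not depend on which air labels hold, and the air states below are those of the log2 table. The arrays detected between 12209 and 12685 of 25697 probes, and any pair of arrays correlated between 0.9902 and 0.9964. The second Snx5+/+ non-air array correlated least with the others, at a mean of 0.9923. Both Snx5-/- air arrays were high for Y-linked genes and low for Xist, the RNA that silences an X chromosome, whereas the other 6 arrays were the reverse. Eif2s3y read 11.81 and 11.73 on those 2 arrays and between 7.13 and 7.40 elsewhere, and a probe for Xist read 7.83 and 7.77 against 11.82 to 12.58. The non-air arrays of both genotypes were thus alike in these genes, and within the air state genotype and these genes cannot be told apart. The Snx5 probe with the highest signal read 7.88, 7.85, 7.84 and 8.42 on the Snx5+/+ arrays and 7.23, 7.24, 7.29 and 7.10 on the Snx5-/- arrays. It was lower in Snx5-/- lungs by 0.78 (SE 0.12, limma, adjusted p = 0.007236), but it was detected on 1 array only, which was the Snx5+/+ air replicate 2, so the fold was at least 1.01. Its other probe was detected on 0 arrays.

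Outside chromosomes 2, X and Y, 76 genes fell and 53 rose in Snx5-/- lungs at an adjusted p under 0.05 (limma, Benjamini-Hochberg over all tested probes) and a log2 difference beyond 0.35. These are 0.888% and 0.619% of the genes tested, 1.51% together. Of the 53 higher genes, 5 passed the filter on low signal only through Snx5-/- groups, so they could enter only by being higher there. Both Snx5-/- arrays lay beyond both Snx5+/+ arrays within each state for all 76 lower and all 53 higher genes. Of all genes tested, 7.31% separated downward and 5.83% upward in this way, and 755 genes separated in opposite directions in the 2 states. In 74 of the 76 lower genes and 38 of the 53 higher genes, every Snx5-/- array lay beyond every Snx5+/+ array whatever the state, against 4.61% and 3.12% of all genes tested. The genes were called on these same arrays, so their separation largely follows from the call and is no separate support. The median difference over all genes was 0.007, with 47.7% of the genes negative and 52.3% positive. On chromosome 2, left out here, 34 of 773 genes passed (4.40%), against 0% to 2.61% on each other autosome.

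The differences were modest in size. Among the 76 lower genes they ran from -0.84 to -0.20 in non-air lungs and from -1.56 to -0.20 in air lungs, and among the 53 higher genes from 0.22 to 1.07 and from 0.26 to 1.40. The difference was larger in air lungs for 52 of the 76 lower and 36 of the 53 higher genes. The same share over all genes tested is not given here, and the air contrast also carries the difference in Y-linked genes and Xist. Without the 2 Snx5-/- air arrays, the only arrays high for Y-linked genes, 17 of the 129 genes passed the test, of which 7 were lower and 10 higher. Slc4a1, Cblif, Aqp5, Car4, Rsad2, Lgals3bp, Ecm1, Tnnc1, Sln, Csrp3, Actn2, Myl1, Cstdc4, Hbb-y, Ptn, Ccl11 and 9530003J23Rik were those 17. Leaving out 1 array at a time gave between 27 and 107 lower and between 29 and 60 higher genes. The count of lower genes fell to 43 or fewer without any one array other than Snx5+/+ non-air replicate 2, and that of higher genes fell to 29 without Snx5+/+ air replicate 1 and to 31 without Snx5-/- air replicate 2. In all 8 of these fits 48 of the 129 genes passed, 22 lower and 26 higher.

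**Figure D1:**
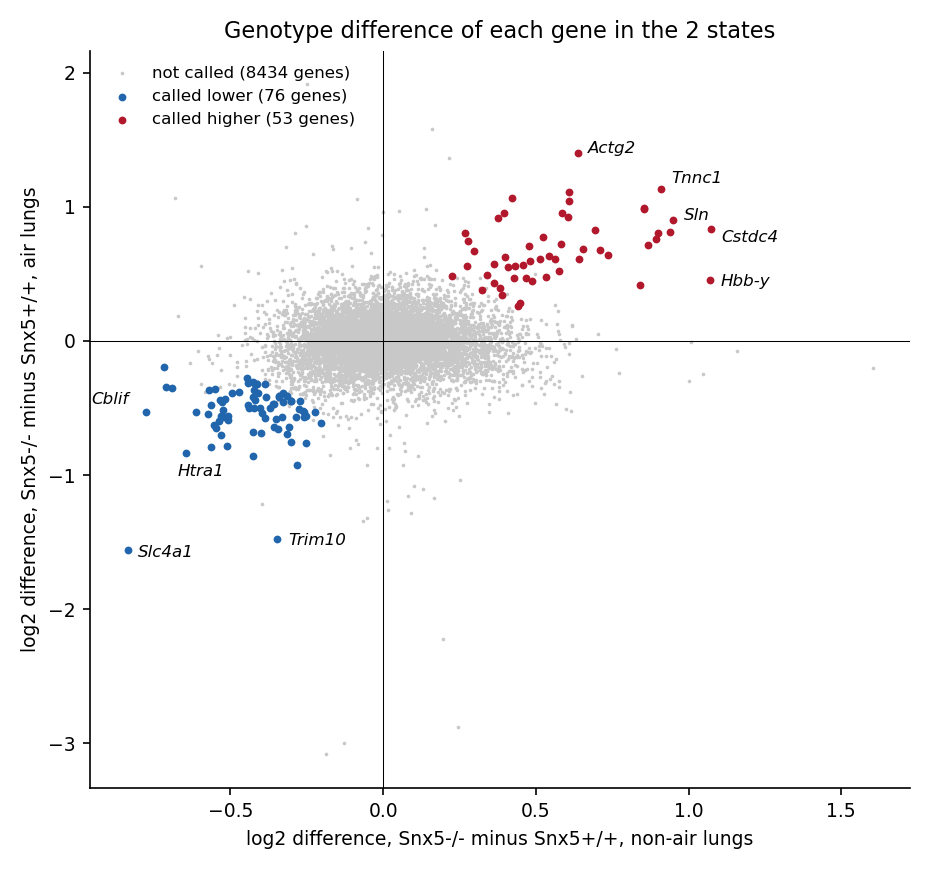
Each point is 1 of 8563 genes outside chromosomes 2, X and Y, with its log2 difference between Snx5-/- and Snx5+/+ lungs in the non-air state (horizontal axis) and in the air state (vertical axis), each a difference of means of 2 arrays. The 76 genes called lower in the joint fit (blue) lie below 0 on both axes and the 53 called higher (red) above 0 on both. The 2 axes have different ranges.

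The largest decrease was in Slc4a1, which encodes band 3, the anion exchanger of the red cell membrane. It read 12.24, 12.08, 12.52 and 12.42 on the Snx5+/+ arrays (2 non-air, then 2 air) and 11.40, 11.24, 10.81 and 11.01 on the Snx5-/- arrays. The genotypes did not overlap, and the difference was -1.20 (SE 0.13, limma, adjusted p = 0.001348), or 2.30-fold. Trim10, which is needed for red cells to mature in mouse, fell by 0.91 (adjusted p = 0.0316), with levels of 9.03 to 9.65 in Snx5+/+ and 8.03 to 8.85 in Snx5-/- lungs. Its difference was larger in air lungs, -1.48 against -0.35 in non-air lungs (interaction adjusted p = 0.01213, limma), and it passed in 2 of the 8 fits with 1 array left out. A second probe of Trim10 differed by -0.31 (adjusted p = 0.06192) and did not pass. Kel, which encodes the Kell blood group protein, fell by 0.53. Of 8 tested markers of red cells, 1 fell (Slc4a1) and 1 rose, and the median difference was -0.08. The marker that rose was Hbb-y, an embryonic beta-like globin, which read 9.66, 9.43, 9.37 and 9.42 in Snx5+/+ and 10.67, 10.57, 9.67 and 10.03 in Snx5-/- lungs. Its difference was 0.76 (SE 0.13, limma, adjusted p = 0.01211) and was 1.07 in non-air and 0.46 in air lungs, and its other probe rose by 0.69. The mean level of the list ranged from 10.47 to 10.61 on Snx5+/+ arrays and from 10.22 to 10.68 on Snx5-/- arrays, and Hbb-bh1, Gata1 and Epb42 were detected on none.

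The other large decreases were in genes of mixed function. Htra1, a secreted serine protease, read 10.96, 11.22, 11.10 and 11.07 in Snx5+/+ lungs and 10.36, 10.53, 10.26 and 10.23 in Snx5-/- lungs, a difference of -0.74 (SE 0.09, limma, adjusted p = 0.001586). Serpinf1, the secreted pigment epithelium-derived factor, read 11.75, 11.56, 11.85 and 11.75 against 11.10, 11.08, 10.96 and 11.06, a difference of -0.68. In both genes the 4 arrays of a genotype lay close together in the 2 states and the genotypes did not overlap. Reln, the matrix glycoprotein reelin, fell by 0.62, C6, a component of the terminal complement pathway, by 0.59, and Cdr2 by 0.64. Cblif, the gastric intrinsic factor that carries vitamin B12, fell by 0.65, from between 11.47 and 11.58 to between 10.73 and 11.03, and Tcn2, the vitamin B12 carrier of plasma, fell by 0.48. Pgc, a pepsinogen made in stomach and in lung epithelium, fell by 0.60 and passed in 2 of the 8 fits with 1 array left out. Rsad2, the antiviral protein viperin, fell by 0.57, from between 11.14 and 11.64 to between 10.62 and 11.10. It was the only one of 16 tested interferon-induced genes that passed, and the median over the 16 was 0.04.

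**Figure D2:**
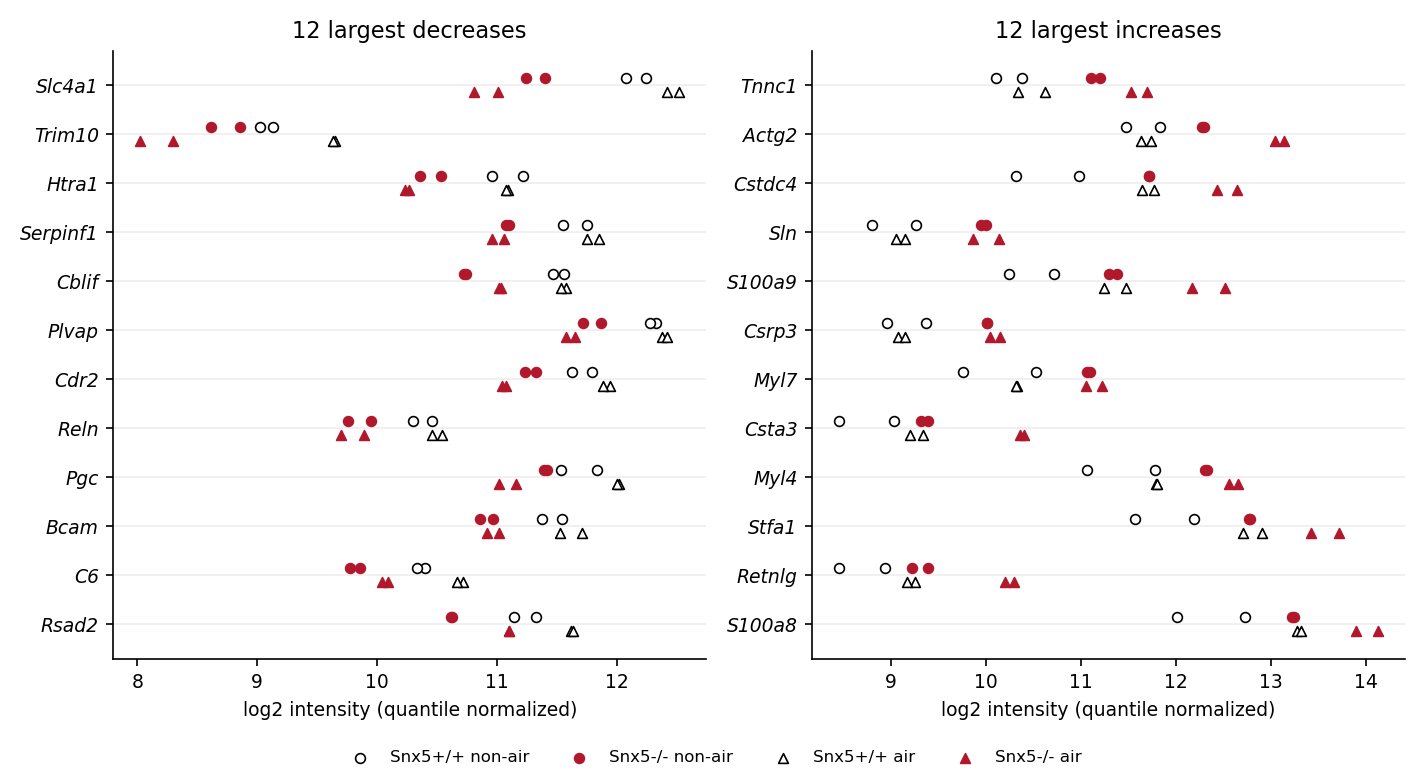
The 12 largest decreases (left) and the 12 largest increases (right) among the called genes whose brighter genotype was detected on all 4 arrays, ordered by size. Each symbol is the log2 intensity on 1 array, open for Snx5+/+ and filled for Snx5-/-, circles for non-air and triangles for air. Within each state both filled symbols lie beyond both open symbols, and in S100a8, S100a9, Cstdc4, Csta3, Stfa1 and Retnlg the air arrays of both genotypes lie above the non-air arrays of the same genotype.

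Among markers of alveolar type I cells, 3 of 14 tested genes fell and none rose, while 0.888% of all genes tested fell. Ager, which encodes the receptor Rage, read 15.09, 15.25, 15.20 and 15.16 in Snx5+/+ lungs and 14.72, 14.74, 14.73 and 14.68 in Snx5-/- lungs. The 4 Snx5-/- arrays lay below every Snx5+/+ array, and the difference was -0.46 (SE 0.07, limma, adjusted p = 0.007338), or 1.37-fold. Pdpn, the surface protein T1α, read 13.92, 14.10, 14.09 and 14.19 against 13.69, 13.67, 13.61 and 13.53, a difference of -0.45 (SE 0.08, adjusted p = 0.0165). Aqp5, a water channel of the apical membrane, read 13.38, 13.39, 13.37 and 13.38 on the Snx5+/+ arrays, 12.66 and 12.72 on the Snx5-/- non-air arrays and 13.13 and 12.92 on the Snx5-/- air arrays, a difference of -0.52 (SE 0.09, adjusted p = 0.01296). Second probes of Ager and Aqp5 fell by 0.53 and 0.54. Ager passed in all 8 fits with 1 array left out, and Pdpn and Aqp5 in 4 each. The study took these 3 genes as typical type I markers and reported lower mRNA in Snx5-/- lungs by qRT-PCR, and less T1α protein. It also named them as lower on its arrays of this series, so the calls here are not independent evidence of a direction.

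The other type I markers were mostly negative but did not pass. In all, 13 of the 14 tested genes were negative, 8 separated downward in both states, and the median was -0.23, against 0.007 over all genes. Over all genes tested, 47.7% were negative and 7.31% separated downward in this way. Clic5, a chloride channel family protein, differed by -0.39, Scnn1a, a subunit of the epithelial sodium channel, by -0.38, and Vegfa, the only positive one, by 0.08. The mean level of the list was 12.89 to 13.08 on Snx5+/+ arrays and 12.68 to 12.74 on Snx5-/- arrays, without overlap. The median was -0.28 without the Snx5-/- air arrays and -0.21 without Snx5+/+ non-air replicate 2. Rtkn2, Sema3e and Hopx were detected on no array. Within the states the medians were -0.28 in non-air and -0.23 in air lungs.

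Type II cell markers gave no call among 18 tested genes, with a median of -0.10 that was -0.26 in non-air and 0.03 in air lungs. The surfactant protein genes Sftpa1, Sftpb, Sftpc and Sftpd differed by -0.06, -0.23, 0.03 and -0.10, and Abca3, the lipid transporter of lamellar bodies, by -0.07. Their adjusted p values lay between 0.2974 and 0.8965 (limma). Second probes of Sftpb and Abca3 differed by -0.38 and -0.22 and did not pass. Of 3 further probes of Muc1, a mucin of the cell surface counted here at -0.32, 1 met both thresholds (-0.36, limma, adjusted p = 0.04025) and the other two differed by -0.35 and -0.34 without passing. Of the genes for lung fluid and ion transport, Aqp5 and Scnn1b, another sodium channel subunit, fell among 11 tested. Scnn1b read 11.68 to 11.92 in Snx5+/+ and 11.41 to 11.49 in Snx5-/- lungs, a difference of -0.38 that passed in 2 of the 8 fits with 1 array left out. Airway secretory cells (9 tested) and ciliated cells (8 tested) gave no call, with medians of -0.004 and 0.12. Cfap69, a protein of cilia and flagella outside that list, rose by 0.40.

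Several genes of endothelium and of the capillary wall fell. Plvap, which forms the diaphragms of endothelial pores, read 12.33, 12.28, 12.37 and 12.42 in Snx5+/+ and 11.72, 11.87, 11.57 and 11.65 in Snx5-/- lungs, a difference of -0.65 (SE 0.08, limma, adjusted p = 0.0024). Car4, a carbonic anhydrase of alveolar capillaries, fell by 0.53, from between 11.02 and 11.35 to between 10.35 and 10.97, with differences of -0.71 in non-air and -0.34 in air lungs, and passed in 4 of the 8 fits. Mcam and Mmrn2, both found on or around endothelial cells, fell by 0.40 and 0.42, and all 3 probes of Mcam fell. Mcam passed in 2 and Mmrn2 in 4 of the 8 fits. Plvap, Mcam and Mmrn2 are not on the list of endothelial markers and were named for being called. Car4 was the only one of 14 listed endothelial markers to pass. Among the 14, 12 were negative, and Flt1 and Ramp2 were positive at 0.01 and 0.10. The median of the 14 was -0.17, and 7 separated downward in both states, as did 7.31% of all genes tested. Pecam1 and Cdh5 differed by -0.41 (limma, adjusted p = 0.1135) and -0.36 (adjusted p = 0.07466). The mean level of this list was 12.63 to 12.70 on Snx5+/+ and 12.43 to 12.50 on Snx5-/- arrays.

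Many of the lower genes encode the extracellular matrix or the enzymes that fold it. Of 24 tested collagen chains, 5 fell and none rose: Col4a4, Col1a1, Col1a2, Col4a2 and Col6a2. Col4a4, a chain of basement membrane collagen, read 10.57, 10.78, 10.52 and 10.47 in Snx5+/+ and 10.11, 10.08, 9.97 and 9.93 in Snx5-/- lungs, a difference of -0.56 (SE 0.07, limma, adjusted p = 0.003289), and its second probe fell by 0.58. Col4a2, another such chain, read 15.20 to 15.53 against 14.75 to 14.97, a difference of -0.45. The fibrillar chains Col1a1 and Col1a2 fell by 0.54 and 0.50, each in 2 of the 8 fits with 1 array left out, while Col4a4 passed in all 8 and Col6a2 in none. The median of the collagen chains was -0.17, and 9 separated downward in both states. Over all genes tested, 0.888% fell and 7.31% separated downward.

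Of 13 genes for collagen folding and modification, 3 fell and none rose, and 9 separated downward in both states. Over all genes tested, 0.888% fell and 7.31% separated downward. The 3 lower genes were Crtap and P3h3, of the enzymes that hydroxylate prolines in collagen, and Serpinh1, the collagen chaperone Hsp47, with differences of -0.37, -0.37 and -0.39. The median of the 13 was -0.30. The mean level of the list was 10.85 to 10.91 on Snx5+/+ and 10.64 to 10.66 on Snx5-/- arrays, in the same order in both states. Crtap and P3h3 passed in 2 of the 8 fits each and Serpinh1 in none. Pdia5, a protein disulphide isomerase, fell by 0.54, and Mogs, which trims the first sugar from new glycoproteins, by 0.42. Of 8 laminins and nidogens, Lamb3 fell by 0.49 (12.47 to 12.66 on the Snx5-/- arrays, all below the Snx5+/+ arrays) and Nid1 by 0.37, with a median of -0.26 and all 8 negative. Bcam, a laminin receptor, fell by 0.60 and Itga3, a subunit of a laminin-binding integrin, by 0.46. Elastin, Eln, read 15.64, 15.68, 15.69 and 15.45 in Snx5+/+ and 15.26, 15.17, 15.21 and 15.30 in Snx5-/- lungs, a difference of -0.38 that passed in 2 of the 8 fits. Fbln1, Tgfbi, Ecm1, Spock2, Spon2 and Timp2, all secreted matrix proteins or inhibitors, fell by between 0.38 and 0.52. Eln, Col1a1 and Col1a2 were the 3 lower genes of the list of fibroblasts and elastic fibres, which had 13 tested genes, 7 of them negative and 6 positive, and a median of -0.01. Dcn, the proteoglycan decorin, differed by 0.25 and Lox, which cross-links collagen and elastin, by 0.11, and neither passed. Lum, the small proteoglycan lumican, a member of the same list, went the other way and rose by 0.51, from between 8.24 and 8.40 to between 8.70 and 8.96. The collagen, laminin and folding lists were put together after called genes had been seen, so their counts describe and test nothing.

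Lysosomal proteins formed another group among the lower genes. Of 21 tested, 7 fell and none rose, 14 separated downward in both states, and the median was -0.28. Over all genes tested, 0.888% fell and 7.31% separated downward. Man2b1, the lysosomal alpha-mannosidase, read 12.74, 12.57, 12.86 and 12.80 in Snx5+/+ and 12.19, 12.04, 12.20 and 12.27 in Snx5-/- lungs, a difference of -0.57 (SE 0.08, limma, adjusted p = 0.003297). Grn, the progranulin that lysosomes process, read 12.71 to 12.84 against 12.13 to 12.39, a difference of -0.53. Both passed in all 8 fits with 1 array left out. Scarb2, a receptor that brings glucocerebrosidase to lysosomes, fell by 0.50, Manba, the beta-mannosidase, by 0.43, Glb1, the beta-galactosidase, by 0.39, Hexa, a hexosaminidase subunit, by 0.37, and Man2b2 by 0.36, and these 5 passed in 1 to 3 of the 8 fits. A second probe of Manba differed by -0.21 (limma, adjusted p = 0.199) and did not pass. The cathepsins Ctsb and Ctsd differed by -0.24 and -0.01 and did not pass. The mean level of the list was 11.13 to 11.22 on Snx5+/+ and 10.90 to 10.93 on Snx5-/- arrays. This list was also chosen after called genes had been seen. The receptor for mannose 6-phosphate, Igf2r, which sorts such enzymes, differed by -0.05 (adjusted p = 0.8476).

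**Figure D3:**
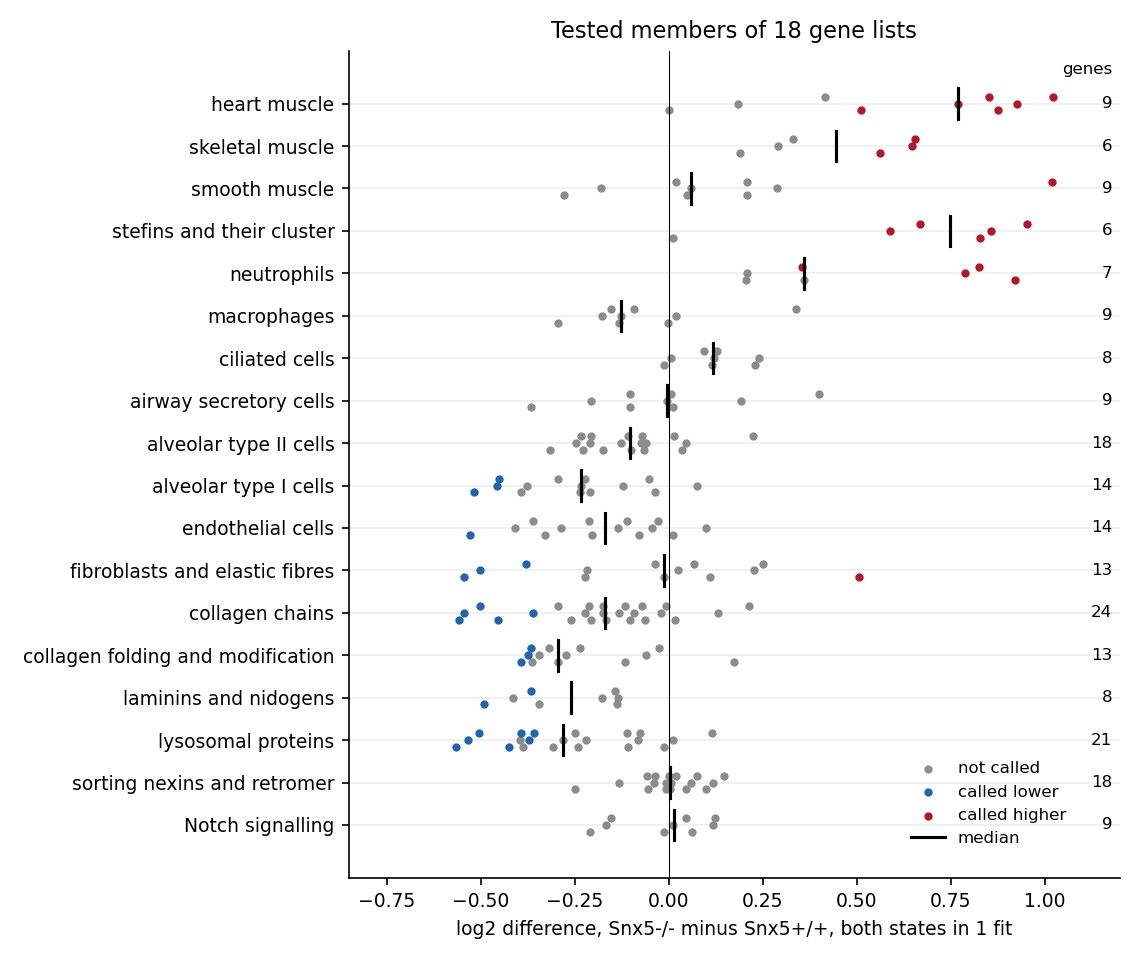
Log2 difference between Snx5-/- and Snx5+/+ lungs in the joint fit (horizontal axis) for the tested members of 18 gene lists, 1 point per gene, with the number of genes at the right and the median as a bar. Blue points passed the test as lower and red points as higher. The medians run from -0.30 for collagen folding and modification to 0.77 for heart muscle. The heart median includes Myl2 and Tnni3, which passed the filter on low signal only through Snx5-/- groups.

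Other lower genes included Msln, a surface protein of the mesothelium that covers the lung, at -0.55 (11.95 to 12.02 against 12.38 to 12.63), and it was 1 of 5 mesothelial markers to pass. Clu, the secreted chaperone clusterin, fell by 0.52, Lgals3bp, a secreted glycoprotein that binds galectin, by 0.46, and Mfge8, which bridges dying cells and phagocytes, by 0.40, with both of its probes lower. Lgals3bp differed by -0.72 in non-air and -0.20 in air lungs and passed in 1 of the 8 fits with 1 array left out. Retnla, a secreted resistin-like protein, fell by 0.50, and the cell surface cadherin Cdh16 by 0.51. Macrophage markers gave no call among 9 tested (median -0.13).

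The largest group among the higher genes was muscle: 18 of the 53 encode proteins of the contractile apparatus, its calcium control or muscle metabolism, a set picked after the called genes had been seen. Their differences ran from 0.37 to 1.02 with a median of 0.71, from 0.38 to 0.95 in non-air and from 0.34 to 1.40 in air lungs. In 16 of the 18 every Snx5-/- array lay above every Snx5+/+ array. The same held for 38 of all 53 higher genes and for 3.12% of all genes tested. As the 18 were picked from genes called on these arrays, their separation largely follows from the call and is no separate support. Tnnc1, the calcium-binding troponin of heart and slow muscle, read 10.38, 10.10, 10.33 and 10.62 in Snx5+/+ and 11.11, 11.20, 11.53 and 11.70 in Snx5-/- lungs. Its difference was 1.02 (SE 0.10, limma, adjusted p = 0.0004923), or 2.03-fold. Sln, the sarcolipin that restrains the calcium pump of atrial and skeletal muscle, read 8.79 to 9.26 against 9.86 to 10.14, a difference of 0.93 without overlap. Csrp3, the muscle LIM protein, rose by 0.92, and its 2 other probes by 0.71 and 0.46. The light chain Myl7, found in atria, read 10.53, 9.76, 10.33 and 10.31 against 11.10, 11.06, 11.05 and 11.22, a difference of 0.88, and Myl4, also an atrial light chain, rose by 0.85.

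Markers of heart muscle counted 6 higher and none lower among 9 tested, with a median of 0.77, while 0.619% of all genes tested rose. The other 2 called markers were Myh6, the heavy chain of the atrium and adult mouse ventricle (0.77), and Myl3, the ventricular and slow-muscle light chain (0.51). The mean level of the 9 genes was 8.92 to 9.29 on Snx5+/+ arrays and 9.70 to 9.94 on Snx5-/- arrays. Myh7, a heavy chain among the 9 tested, differed by -0.0003, the only negative value, and was detected on no array. Nppa, Nkx2-5, Ryr2 and Pln, further genes of heart muscle, were also detected on no array. Of the heart markers Myl2 and Tnni3, and of the skeletal muscle markers Acta1 and Tnnt3, passed the filter on low signal only through Snx5-/- groups, so they could enter only by being higher there. They count in the mean levels of their lists given here and, for the heart list, in the median. Skeletal muscle markers lay near the detection limit, with mean levels of 7.83 to 8.14 in Snx5+/+ and 8.19 to 8.60 in Snx5-/- lungs. Of the 6 that were tested Tnni2, Ckm and Acta1 passed, 1 was detected on all 8 arrays, and Myog, Mb and Tnnc2 were detected on none. Ckm, the muscle creatine kinase, was detected on no Snx5+/+ array and on all 4 Snx5-/- arrays and was at least 1.52-fold higher.

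Of smooth muscle genes 1 rose. Actg2, the enteric smooth muscle actin, read 11.83, 11.47, 11.63 and 11.74 in Snx5+/+ and 12.30, 12.28, 13.14 and 13.04 in Snx5-/- lungs, a difference of 1.02 (SE 0.14, limma, adjusted p = 0.004505) that was 0.64 in non-air and 1.40 in air lungs. It was the only one of 9 smooth muscle markers to pass, and the median of the list was 0.06. Acta2, the actin of vessels and airways, differed by 0.05, Myh11 by 0.21 and Des, the intermediate filament of all muscle, by 0.29 (adjusted p = 0.08414). Of the 18 muscle genes, 15 passed in all 8 fits with 1 array left out, and 5 passed without the Snx5-/- air arrays. The second Snx5+/+ non-air array was the lowest Snx5+/+ array for 14 of the 18 and for 34 of all 53 higher genes. Without that array the median of the heart list was 0.70 and 49 of the 53 higher genes passed.

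For the 18 muscle genes, the 250 bases before their transcription starts were read from RefSeq (build GRCm38.p6). They were searched on both strands for the CArG box, the site of serum response factor, which reads the same on both strands. Of the 18 genes, 15 had a sequence in the table and 3 of these held the site, against 1.62% of 27025 genes. It was present in 6.98% of the higher genes with a sequence (3 of 43, the same 3 muscle genes) and in 1.72% of the lower genes (1 of 58). Muscle genes that were not called were not compared, so the share cannot be tied to the change. The 3 promoters with the site are shown with that of Tnnc1, the gene with the largest increase, which has none. The site is in capitals and each sequence runs 5′ to 3′ towards the start of the gene.
Acta1 (chr8:123894776-123895025, minus strand), the skeletal muscle actin: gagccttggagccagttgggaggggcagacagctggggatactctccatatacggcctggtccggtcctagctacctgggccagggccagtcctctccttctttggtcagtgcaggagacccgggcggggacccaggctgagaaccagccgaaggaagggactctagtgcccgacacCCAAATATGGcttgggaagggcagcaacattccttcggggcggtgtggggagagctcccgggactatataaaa
Myl3 (chr9:110763428-110763677, plus strand): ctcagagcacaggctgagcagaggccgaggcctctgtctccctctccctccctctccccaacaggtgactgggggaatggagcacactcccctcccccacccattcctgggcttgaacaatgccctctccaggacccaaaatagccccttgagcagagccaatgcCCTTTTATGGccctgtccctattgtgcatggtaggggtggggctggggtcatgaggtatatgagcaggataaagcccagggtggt
Myl7 (chr11:5898783-5899032, minus strand): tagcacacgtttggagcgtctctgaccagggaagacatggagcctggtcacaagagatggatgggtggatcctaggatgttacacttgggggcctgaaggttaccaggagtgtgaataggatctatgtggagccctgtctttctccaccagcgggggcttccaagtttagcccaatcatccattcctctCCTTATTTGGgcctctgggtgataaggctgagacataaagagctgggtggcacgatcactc
Tnnc1 (chr14:31208062-31208311, plus strand): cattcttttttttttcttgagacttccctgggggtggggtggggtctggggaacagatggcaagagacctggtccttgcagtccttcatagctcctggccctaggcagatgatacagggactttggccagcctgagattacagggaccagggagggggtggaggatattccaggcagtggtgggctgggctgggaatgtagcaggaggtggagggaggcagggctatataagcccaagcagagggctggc
The first base of the site lay 73 bases before the start in Acta1, 85 in Myl3 and 61 in Myl7. Acta1 rose by 0.56, from between 7.41 and 7.57 to between 7.78 and 8.22, but it was detected on 1 of 8 arrays and was at least 1.06-fold higher. A match to the site is a description of the sequence only.

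Genes of neutrophils formed another group of the higher genes. Of 7 tested markers 4 rose, against 0.619% of all genes tested, none fell, and the median was 0.36. The middle value was that of Cxcr2, which was not called. Cxcr2 passed the filter on low signal only through Snx5-/- groups, so it could enter only by being higher there. It counts in the median and in the mean level of the list. S100a9, a subunit of the calcium-binding protein calprotectin, read 10.72, 10.25, 11.24 and 11.48 in Snx5+/+ and 11.38, 11.29, 12.17 and 12.52 in Snx5-/- lungs, a difference of 0.92 (SE 0.12, limma, adjusted p = 0.0024). S100a8, the other subunit, read 12.72, 12.01, 13.28 and 13.32 against 13.25, 13.22, 13.90 and 14.13, a difference of 0.79. In both genes the air arrays of Snx5+/+ lungs reached the non-air arrays of Snx5-/- lungs, and the genotypes separated within each state. Retnlg, a resistin-like protein of granulocytes, and Camp, the cathelicidin of neutrophil granules, rose by 0.82 and 0.35, and Camp passed in none of the 8 fits with 1 array left out. The mean level of the list was 9.27 and 9.01 against 9.64 and 9.61 in non-air lungs and 9.71 and 9.80 against 10.24 and 10.39 in air lungs. Elane, Mpo and Mmp8, markers of earlier or other granules, were detected on no array. The formyl peptide receptor Fpr2 and the lectin Clec4d, both found on myeloid cells, rose by 0.48 and 0.54.

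The stefins, small inhibitors of cysteine proteases encoded in a cluster on chromosome 16 and abundant in mouse neutrophils, rose with these genes. Of 6 tested genes of this group 5 rose, with differences of 0.95 for Cstdc4, 0.86 for Csta3, 0.83 for Stfa1, 0.67 for Csta2 and 0.59 for Stfa2. Stfa1 read 12.19, 11.57, 12.70 and 12.91 in Snx5+/+ and 12.77, 12.78, 13.42 and 13.72 in Snx5-/- lungs. These genes are near-identical copies, so a probe may read several of them and they are not separate findings. The second Snx5+/+ non-air array was the lowest for each of these genes, and without it the medians were 0.64 for the stefins and 0.37 for the neutrophil markers.

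**Figure D4:**
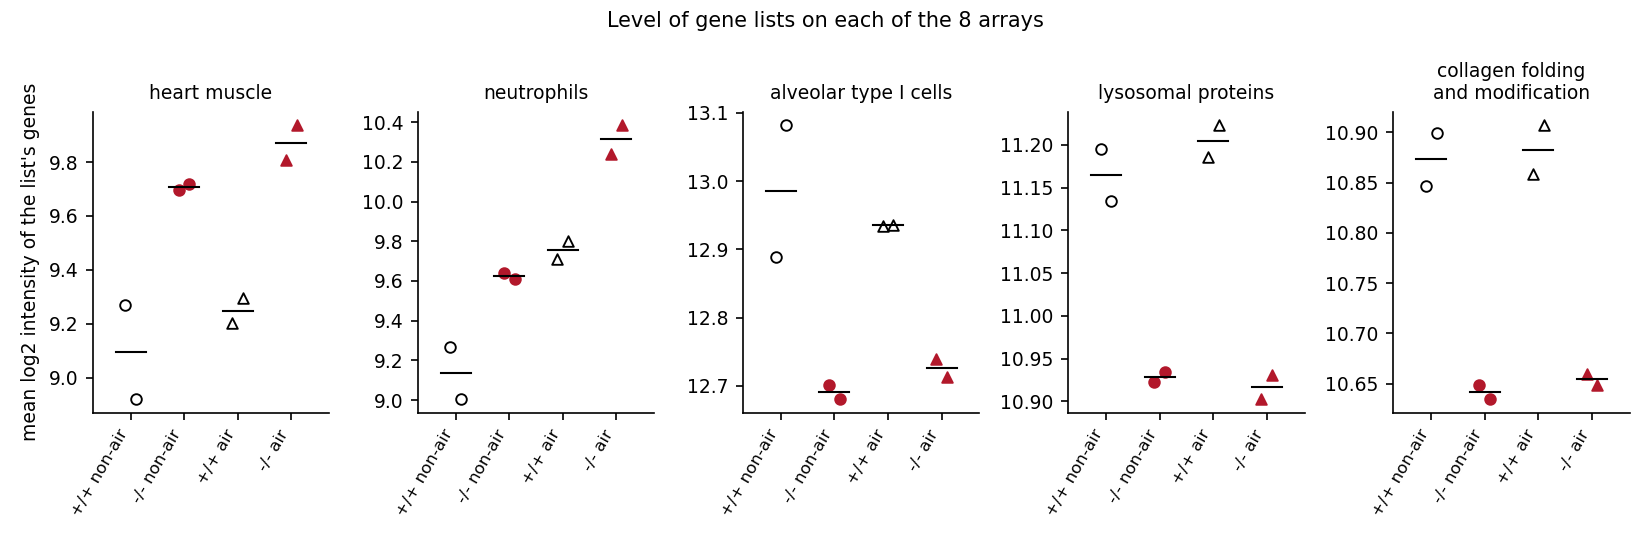
Mean log2 intensity (vertical axis, with its own range in each panel) of the tested genes of 5 lists on each of the 8 arrays, with the mean of each group of 2 as a bar. Circles are non-air and triangles air, open for Snx5+/+ and filled for Snx5-/-. The filled symbols lie above all open symbols for heart muscle and below all open symbols for alveolar type I cells, lysosomal proteins and collagen folding, while the neutrophil list separates by genotype within each state. The heart list includes Myl2 and Tnni3 and the neutrophil list Cxcr2, which passed the filter on low signal only through Snx5-/- groups.

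The remaining higher genes were of mixed function. Ptn, the growth factor pleiotrophin, read 9.34, 9.32, 9.57 and 9.34 in Snx5+/+ and 9.96, 9.99, 10.16 and 9.97 in Snx5-/- lungs, a difference of 0.63 (SE 0.08, limma, adjusted p = 0.0024). The secreted signals Csf2, the colony-stimulating factor that alveolar macrophages depend on, Ccl11, a chemokine for eosinophils, and Ccl5 rose by 0.54, 0.63 and 0.50. The second probe of Ccl11 differed by 0.09 and did not pass, and Ccl5 was detected on no Snx5+/+ array and was at least 1.39-fold higher. Psmb1, a proteasome subunit, rose by 0.74, from between 11.53 and 11.91 to between 12.15 and 12.81, as the only one of 25 proteasome genes that passed (median 0.01). The transcription factors Nkx6-1, Isl1 and Sox21 also passed. Sox21 rose by 0.47, Nkx6-1 was detected on no Snx5+/+ array and on 2 Snx5-/- arrays and was at least 1.12-fold higher, and Isl1 was detected on no array, so no fold is given. Of the 53 higher genes, 39 were detected on all 4 Snx5+/+ arrays and 8 on none of them, and of the 76 lower genes 74 were detected on all 4 Snx5-/- arrays. In 26 called genes another probe was tested, and all 28 such probes had the sign of the first, 16 of them passing the test.

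Several pathways gave no call in this contrast. Of 18 sorting nexin and retromer genes none passed, with a median of 0.003, and Snx1, Snx2 and Snx6, the partners of Snx5, differed by 0.002, 0.15 and 0.10. Of 9 Notch pathway genes none passed, with a median of 0.01. Among them and the other Notch genes named by the study, Hes1, Hey1, Hey2 and Heyl differed by 0.06, 0.12, 0.12 and 0.05, and Mib1, a ligase for Notch ligands, by -0.01. Egfr differed by -0.13. Cytosolic ribosomal proteins (49 tested), mitochondrial ribosomal proteins (67) and subunits of oxidative phosphorylation (60) gave no call in either direction, with medians of 0.11, 0.08 and 0.08. Positive differences were found in 44, 57 and 50 of them, against 52.3% of all genes tested. Without Snx5+/+ non-air replicate 2 the medians were 0.05, 0.01 and -0.02. The oxidative phosphorylation median was 0.30 in non-air lungs and -0.09 in air lungs. Immediate-early genes gave no call among 14, with medians of 0.05 in non-air and -0.93 in air lungs. Of the genes named by the study, Hes5 and Akt1 were on the array but were too dim to be tested.

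The genotype difference was seldom shown to depend on the air state. The interaction passed at an adjusted p under 0.05 (limma) for 39 of 8563 genes (0.455%), and Trim10 was the only one of these among the 129 called genes. The 129 were called in a fit without an interaction term, where a large interaction widens the error and hinders a call. The low number among them thus largely follows from the call and is no separate support for a difference shared by both states. In a fit with 4 group means, the non-air contrast called 19 lower and 22 higher genes, and the air contrast 104 lower and 84 higher. Of the 129 genes, 24 passed in the former and 84 in the latter. Each such contrast had 2 arrays against 2, and the air contrast carried the difference in Y-linked genes and Xist.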

How the data were processed

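Total RNA of whole lungs was amplified, labelled and hybridised to Illumina MouseRef-8 v2 BeadChips, 8 arrays in 4 groups of 2. The authors deposited quantile-normalized log2 values, which were the main measure, and non-normalized intensities with a detection p-value per probe, which served as alternatives and for detection (p under 0.01). The number of arrays limits the precision, and p-values measure only the spread between these samples. Columns of per-sample values that were left out numbered 0.

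Probes with a mean log2 value over 8 in at least 1 group were tested (13830 of 25697) with limma 3.58.1 in R 4.3.3, with genotype and air state as terms and Benjamini-Hochberg adjustment over all tested probes. Counts are of genes, each read by the probe that was brightest on average. A gene was called at an adjusted p under 0.05 and a log2 difference beyond 0.35, the study's fold threshold rounded. Of the probes, 23978 were annotated to 1 gene and 1719 to none or several, and the latter were left unnamed. Where all arrays of a genotype were below detection, a fold is given as a bound, from the bright group's mean over the lowest detected signal on each dim array. The script was tested on simulated data. Equal replicate numbers were not treated as pairs in the main fit. Replicate differences of the 6 pairs of groups correlated between -0.227 and 0.278, with 2 of them over 0.1. These correlations cannot exclude a pairing.

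Genes, gene lists (46) and tests were chosen with earlier results of these data known. The genes named were Snx5, those the study names, the 12 largest changes in each direction among called genes that separated in both states and were detected on all 4 arrays of the brighter genotype, 2 to 4 members of each list described, and called genes with an interaction. Other called genes, and the lists of muscle genes, collagens, folding enzymes, laminins, lysosomal proteins and stefins, were chosen after their values had been seen. Alternatives were other fits, scalings, filters, thresholds and each array left out.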

Additional observations from a re-analysis of the deposited data

Results flagged for a closer look

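Among 272 groups of 4 arrays of a genotype that were examined, for the genes named here or by the study, 14 held 1 array far from the other 3, and chance gives about 1 in 20 groups. The second Snx5+/+ non-air array was far from the others in Myl4 (11.07), in Scgb1a1, the main secretory protein of club cells (15.78), and in Pecam1, an endothelial adhesion molecule (13.56). The second Snx5+/+ air array was far from the others in Snx5 (8.42), in Carm1, an arginine methyltransferase (9.55), and in Foxm1, a transcription factor of dividing cells (9.67). The other arrays far from their group were Snx5+/+ non-air replicate 1 in 9530003J23Rik (8.99), Snx5+/+ non-air replicate 2 in Isl1 (7.74), Snx5-/- air replicate 2 in Mcam (12.83), in Myh6 (10.46) and in Dcn (11.98), Snx5-/- air replicate 1 in Lox (14.91), and, in Ptn, Snx5+/+ air replicate 1 (9.57) and Snx5-/- air replicate 1 (10.16).

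The genotype difference depended on the air state, by the interaction test of limma, in 4 of these genes. The difference in air lungs minus that in non-air lungs was -1.13 for Trim10 (adjusted p = 0.01213), 1.16 for Inmt, a methyltransferase of small amines (adjusted p = 0.0021), -0.87 for Zfp36, which speeds the decay of mRNAs (adjusted p = 0.017), and -1.21 for Dusp1, a phosphatase of MAP kinases (adjusted p = 0.0017). In 7 further genes the arrays separated in opposite directions in the states: Hes1 (0.32), Hey1 (0.56), Abca3 (0.53), Cebpa (0.66), Carm1 (0.41), Mapk6 (0.45) and Vegfa (0.52). Their interactions did not pass the test. Both Snx5-/- air arrays were the Y-high arrays, so the air state of the Snx5-/- lungs and that difference cannot be told apart here.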

How the results depend on the processing

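The counts of lower and higher genes (76 and 53) became 119 lower with 4 group means averaged, 28 higher with no air term, 25 lower and 27 higher with the Y-linked level as a covariate (22 and 16 of them separated in both states), and 38 lower after neqc on the intensities. A fold threshold of 1.5 gave 11 lower and 29 higher. A plain t-test of all arrays by genotype gave 111 and 58 unadjusted, or 3 and 1 once adjusted by Benjamini-Hochberg. The study's own procedure, which joined a t-test and a median ratio test with permutation p-values, was not rerun. Leaving out 1 array gave 27 to 107 lower and 29 to 60 higher, separated or not. Non-air arrays alone gave 3 lower and 6 higher, air arrays alone 107 and 87. Without both Snx5-/- air arrays, an alternative chosen after seeing the data, the counts were 12 and 19. Fewer arrays were fitted in these. With the replicate number as a block, 64 genes were lower and 47 higher, and 108 of the 129 passed. Median scaling moved the median of all genes to -0.022 and gave 100 lower and 50 higher, and the intensities under their own air labels gave 78 and 53. Inmt, not called over both states (-0.02), differed by -0.60 in non-air lungs and was positive (0.56) in air arrays alone, and the cause was not tested. Probes below detection limit the folds of the dimmest genes to bounds.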

Other observations

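Some gene lists had medians of opposite sign in the states and gave no more than 1 call over both. Immediate-early genes had a median of 0.05 in non-air and -0.93 in air lungs. Interferon-induced genes had medians of -0.31 and 0.29, with 1 call in 16 over both states. In 2 other lists the medians had the same sign in both states. Sterol synthesis genes were negative in 12 of 13, with medians of -0.14 and -0.15 and no call, while 47.7% of all genes tested were negative. Platelet markers were negative in 6 of 6 (median -0.18, with -0.16 in non-air and -0.25 in air lungs), and no platelet gene passed.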
